A study of Mus musculus with 8 samples.

Results

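The genes of glucose breakdown were followed in fetal liver myeloid progenitors infected to overexpress Trim27, a ubiquitin ligase of the tripartite motif family. The set holds the enzymes and carriers of glycolysis, lactate exchange, the pentose phosphate pathway, the pyruvate dehydrogenase complex and the tricarboxylic acid (TCA) cycle. Its 41 listed symbols were looked up in the table of raw read counts, and all were found as 40 genes of the 33435 in the table, because Pkm2 is an older symbol of Pkm. All 40 had enough counts to be tested, among 11040 genes tested in all.

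Cells of both groups were hematopoietic stem and progenitor cells from E14.5 fetal livers of C57BL/6J mice. In the Trim27 group (4 libraries) they were infected with Trim27 virus, and in the GFP group (4 libraries) with a GFP control virus, and the myeloid progenitors were then sorted. The design text calls the controls empty vector cells. The labels state neither the promoter that drives Trim27 nor whether the Trim27 virus carries a fluorescent marker. Whether the 4 libraries within a group stem from separate embryos or cultures is not stated, so p-values reflect library-to-library spread alone, part of which may be technical. RNA was measured by sequencing of polyadenylated transcripts.

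Glycolysis splits glucose into pyruvate in the cytosol, and lactate dehydrogenase turns pyruvate into lactate. The pentose phosphate pathway branches off at glucose 6-phosphate and supplies NADPH and ribose for nucleotides. Pyruvate that enters mitochondria is turned into acetyl-CoA by pyruvate dehydrogenase and is burned in the TCA cycle. Dividing blood progenitors use these routes for building blocks as well as for energy.

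Total counts were 10551137 to 16366571 in the Trim27 libraries and 9257889 to 10747794 in the GFP libraries, with 12962 to 13283 genes detected in each Trim27 library and 11131 to 11850 in each GFP library. Trim27 itself stood at 292.7 ± 18.4 CPM, counts scaled per 1e6 reads, in the Trim27 group and 180.5 ± 8.52 CPM in the GFP group (SD, n = 4 each), and its log2 fold change was 0.70. All CPM are relative to library sizes scaled by TMM, a trimmed mean of log ratios. The share of counts from cytosolic ribosomal protein genes was 18.9% ± 0.348 in the Trim27 group and 26.6% ± 0.0677 in the GFP group (SD, n = 4 each). All 10 myeloid progenitor markers had counts, with summed levels of 2304 to 2535 CPM in the Trim27 libraries and 2099 to 2208 CPM in the GFP libraries. Of these markers 2 rose and 7 fell, and Csf2rb (1193 ± 40.8 CPM in the Trim27 group and 471.6 ± 10.5 CPM in the GFP group) and Spi1 were the ones that rose. Erythroid markers, 9 of which were in the table, summed to 1761 to 1967 CPM in the Trim27 libraries and 2242 to 2289 CPM in the GFP libraries. The 10 B cell markers summed to 42.3 to 56.5 CPM in the Trim27 libraries and 67.1 to 155 CPM in the GFP libraries, and the 8 T and NK cell markers to 113 to 117 CPM in the Trim27 libraries and 46.6 to 56.9 CPM in the GFP libraries. The 10 macrophage markers summed to 22.9 to 33.9 CPM in the Trim27 libraries and 0 to 1.2 CPM in the GFP libraries, with C1qa, C1qc, Mrc1, Marco, Cd163, Cd5l and Vcam1 at 0 throughout. The 9 hepatocyte markers summed to 14.3 to 16.4 CPM in the Trim27 libraries and 1.2 to 1.7 CPM in the GFP libraries, with Alb, Ttr, Apob, Ahsg, Fga, Hnf4a and Serpina1a at 0. The 9 endothelial and stromal markers summed to 28.1 to 28.8 CPM in the Trim27 libraries and 28.8 to 37.1 CPM in the GFP libraries, with Cdh5, Kdr, Col3a1, Sparc, Dcn and Lyve1 at 0. The part of these other cells in the results on the enzymes was not tested.

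Of the 40 genes, 29 passed an adjusted p of 0.05 (edgeR's quasi-likelihood test, Benjamini-Hochberg over all genes tested). That is 72.5%, against 85.5% of all genes tested. Among them, 19 rose and 10 fell, against 47.5% of all genes that rose and 38.0% that fell. Libraries of one group lay wholly above those of the other for 25 of the 40 (16 higher and 9 lower in the Trim27 group), against 80.7% of all genes (45.3% higher and 35.4% lower). Changes of at least 2-fold were seen in 5 of the 40 genes, 4 rises and 1 fall, against 47.3% of all genes (31.3% rises and 16.0% falls). The median log2 fold change was 0.09 for the 40 genes and 0.14 for all genes tested, and the median absolute value was 0.35 for the 40 genes and 0.93 for all genes. Among the 2644 genes at a mean of 6 log2 CPM or more the median absolute value was 0.50. Of these genes 148 rose and 315 fell by at least 2-fold. The part of abundance in the smaller changes of the members was not tested. In bulk libraries a change in the RNA of each cell and a change in the mix of cells cannot be told apart.

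The direction of many small changes depended on how libraries were scaled. Scaling by library size alone moved the median of all genes by 0.30, removing each library's trend with transcript length moved it by -0.21, and removing the trend of abundant genes moved it by 0.22 (log2). Of the 40 members 33 rose and 5 fell by library size alone, beside 6277 and 3106 of all 11040 genes. With the length trend removed 9 members rose and 21 fell, beside 4393 and 4873 of all genes. When the trend fitted on abundant genes was removed 27 members rose and 6 fell, beside 5901 and 3281 of all genes. In 14 genes the direction and the call were the same in all alternatives tried for single genes. Pgk1, Ldhb, G6pdx, Rpia, Rpe, Dlat, Dld, Suclg2 and Sucla2 rose, and Tpi1, Pgls, Pdhb, Idh3g and Fh1 fell. The results below turn mainly on these genes.

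**Figure D1:**
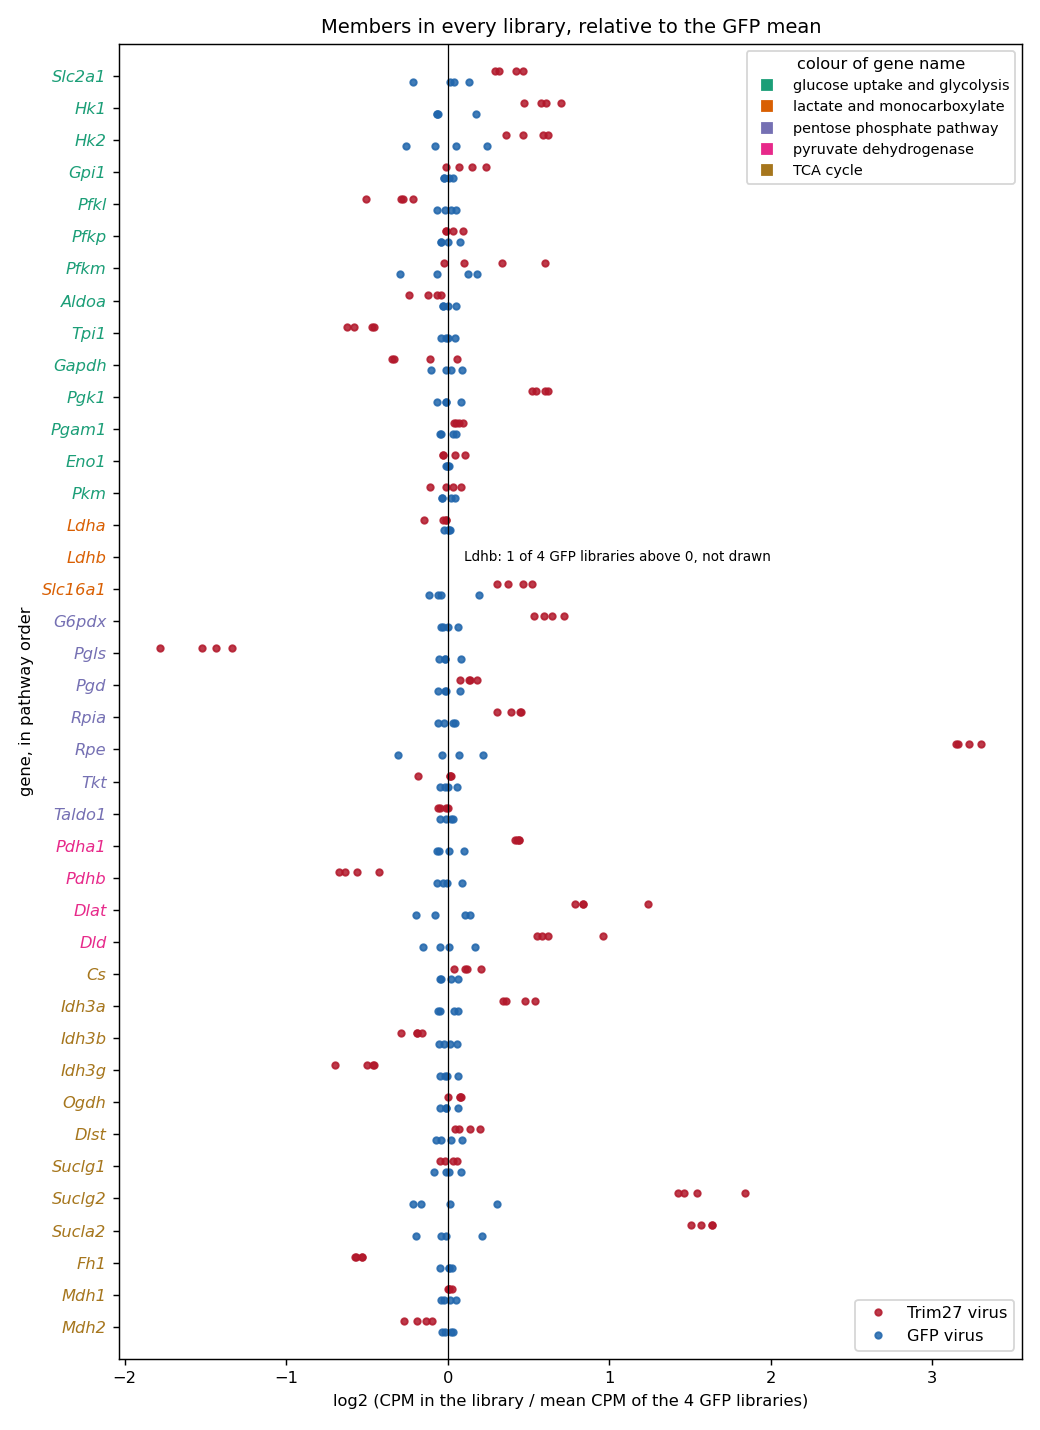
Level of each gene in each library, as the log2 ratio of its CPM to the mean of the 4 GFP libraries (x axis), in pathway order (y axis); red points are Trim27 libraries, blue points GFP libraries, and Ldhb is not drawn because 3 GFP libraries had no count. Most of the abundant glycolytic genes lie near 0 in both groups, while Rpe, Sucla2 and Suclg2 lie far to the right and Pgls far to the left in all 4 Trim27 libraries.

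Promoter sequence is shown for the 5 genes that changed by at least 2-fold, and for Ldha as the abundant partner of Ldhb. Each window holds 300 bases around the annotated start and comes from RefSeq on GRCm38.p6, a later build than the one named for the counts, matched by symbol. Capitals mark matches on either strand to CACGTG (the E-box bound by MYC-type factors), ACGTG (the core of the hypoxia response element), GGGCGG (the GC box) and CCGGAA (a core of ETS family sites). ACGTG lies inside CACGTG, and matches may overlap. The windows are Ldhb at chr6:142507908-142508207 (minus strand), Ldha at chr7:46845554-46845853 (plus strand, the first of 2 windows listed), Rpe at chr1:66700581-66700880 (plus strand), Sucla2 at chr14:73552536-73552835 (plus strand), Suclg2 at chr6:95718797-95719096 (minus strand) and Pgls at chr8:71591934-71592233 (plus strand).
Ldhb: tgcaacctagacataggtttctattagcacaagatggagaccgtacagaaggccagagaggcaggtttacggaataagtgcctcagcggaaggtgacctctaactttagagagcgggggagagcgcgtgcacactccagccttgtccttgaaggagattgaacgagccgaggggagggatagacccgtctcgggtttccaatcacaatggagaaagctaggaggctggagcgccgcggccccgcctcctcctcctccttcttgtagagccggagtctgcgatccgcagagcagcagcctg
Ldha: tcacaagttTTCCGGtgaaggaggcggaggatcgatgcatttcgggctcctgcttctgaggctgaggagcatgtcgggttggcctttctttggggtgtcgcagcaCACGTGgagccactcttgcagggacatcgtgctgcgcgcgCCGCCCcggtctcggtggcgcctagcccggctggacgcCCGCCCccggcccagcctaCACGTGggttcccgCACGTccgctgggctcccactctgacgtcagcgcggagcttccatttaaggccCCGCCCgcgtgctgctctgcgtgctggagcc
Rpe: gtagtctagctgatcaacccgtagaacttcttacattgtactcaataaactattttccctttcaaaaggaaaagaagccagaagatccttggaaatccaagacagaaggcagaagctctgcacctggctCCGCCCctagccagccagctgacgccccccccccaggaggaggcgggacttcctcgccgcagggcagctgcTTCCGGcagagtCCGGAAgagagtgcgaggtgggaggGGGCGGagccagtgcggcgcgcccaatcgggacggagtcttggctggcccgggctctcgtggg
Sucla2: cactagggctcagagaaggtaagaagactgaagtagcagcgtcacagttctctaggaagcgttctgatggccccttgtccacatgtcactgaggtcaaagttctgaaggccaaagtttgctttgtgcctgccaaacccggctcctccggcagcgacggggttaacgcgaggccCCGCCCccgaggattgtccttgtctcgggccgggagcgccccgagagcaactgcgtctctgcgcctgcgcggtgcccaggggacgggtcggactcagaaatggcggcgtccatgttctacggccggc
Suclg2: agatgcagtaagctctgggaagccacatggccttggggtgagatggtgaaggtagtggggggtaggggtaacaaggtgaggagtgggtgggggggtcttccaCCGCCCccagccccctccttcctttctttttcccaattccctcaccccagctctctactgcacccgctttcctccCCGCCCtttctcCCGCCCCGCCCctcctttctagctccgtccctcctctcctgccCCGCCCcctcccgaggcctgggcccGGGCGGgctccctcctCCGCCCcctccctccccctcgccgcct
Pgls: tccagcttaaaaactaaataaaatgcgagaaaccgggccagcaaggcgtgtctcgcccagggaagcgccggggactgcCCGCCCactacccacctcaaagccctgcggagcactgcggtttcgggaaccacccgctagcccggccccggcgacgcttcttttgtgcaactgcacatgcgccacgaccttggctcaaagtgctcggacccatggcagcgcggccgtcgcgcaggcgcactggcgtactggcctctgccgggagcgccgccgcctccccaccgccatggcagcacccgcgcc

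The Ldha window held 2 E-boxes, 3 GC boxes, 1 ETS core and 5 matches to ACGTG, of which 4 lay inside the E-boxes, each E-box being read on both strands, while none of these letters occurred in the Ldhb window. The Rpe window held 2 GC boxes and 2 ETS cores, the Suclg2 window 7 GC boxes, and the Sucla2 and Pgls windows 1 GC box each. Over all members, 39 genes had 55 windows. ACGTG was present in 41.8% of these and in 19.6% of the 32851 windows of the whole table, and GGGCGG in 63.6% of members' windows and 35.7% of all. CACGTG was in 10.9% of members' windows and 7.15% of all, CCGGAA in 23.6% of members' windows and 14.9% of all, and the palindrome bound by NRF1, a regulator of mitochondrial genes, in 1.82% of members' windows and 0.971% of all. The members' windows also held a median of 21 CG pairs, against 7 in all windows, and the part of base composition was not tested. Of the 16 genes with ACGTG, 6 rose, 4 fell and 6 did not pass, so the letters were found in genes of every outcome.

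Most of the abundant enzymes of lower glycolysis were close to level between the groups on the TMM scale. The most abundant gene per length was Ldha, at 2794 CPM per kb in the Trim27 group and 2887 CPM per kb in the GFP group, followed by Aldoa at 1981 CPM per kb in the Trim27 group and 2146 CPM per kb in the GFP group. Ldha encodes the muscle-type subunit of lactate dehydrogenase and Aldoa an aldolase. Ldha was at 4740, 5207, 5132 and 5204 CPM in Trim27 libraries 1 to 4, against 5265, 5287, 5168 and 5240 CPM in GFP libraries 1 to 4. The groups overlapped, and the lowest value was that of Trim27 library 1 (log2 fold change -0.05, SE 0.04, adjusted p = 0.282). Without Trim27 library 2 Ldha passed (-0.09, adjusted p = 0.0418), and its value turned positive by library size alone (0.26).

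Eno1 (enolase) averaged 1507 ± 70.1 CPM in the Trim27 group and 1480.1 ± 8.9 CPM in the GFP group (SD, n = 4 each). Pkm, which encodes the pyruvate kinase of dividing and muscle cells, averaged 1050.5 ± 59.4 CPM in the Trim27 group and 1049 ± 28.7 CPM in the GFP group. Pgam1 (phosphoglycerate mutase) averaged 262 ± 4.51 CPM in the Trim27 group and 250.6 ± 8.9 CPM in the GFP group. None of these genes passed, with log2 fold changes of 0.03 (SE 0.04), 0.0018 (SE 0.05) and 0.07 (SE 0.05). Leaving out single libraries turned the sign of Eno1 (lowest value -0.04) and of Pkm (lowest value -0.06). Removing the length trend gave -0.20 for Eno1, -0.32 for Pkm and -0.07 for Pgam1. All 3 passed as higher by library size alone, at 0.33 for Eno1, 0.31 for Pkm and 0.37 for Pgam1, close to the 0.30 by which that scaling moved the median of all genes. Pgam1 also passed under upper-quartile factors (0.11), the DESeq2 test (0.09) and removal of the trend fitted on abundant genes (0.23), and Eno1 under the last of these (0.13).

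The abundant members can be set beside other genes of their abundance. Of 133 genes at a mean of 10 log2 CPM or more, 17 rose, 108 fell and 8 did not pass, with a median log2 fold change of -0.60. The 6 members in this range were Aldoa, Eno1, Pkm, Ldha, Tkt and Mdh2. Of these, 0 rose, 2 fell and 4 did not pass, with a median of -0.04. The median transcript length was 1242 bases for the 133 genes and 1921 bases for the 6 members. The part of transcript length and of ribosomal protein genes in this difference was not tested. The 12 members from 8 to 10 log2 CPM had a median of -0.01, beside -0.32 for 533 genes. Their median absolute value was 0.17, beside 0.46. The 13 members from 6 to 8 log2 CPM had a median of 0.42, beside -0.17 for 1978 genes. Their median absolute value was 0.43, beside 0.50. Together the 40 genes took 2.48% ± 0.0745 of the raw counts in the Trim27 group and 2.1% ± 0.0109 in the GFP group (SD, n = 4 each). On the TMM scale their sum was 22364 ± 911 CPM in the Trim27 group and 23394 ± 284 CPM in the GFP group, so the sum was higher or lower in the Trim27 group according to the scale.

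**Figure D2:**
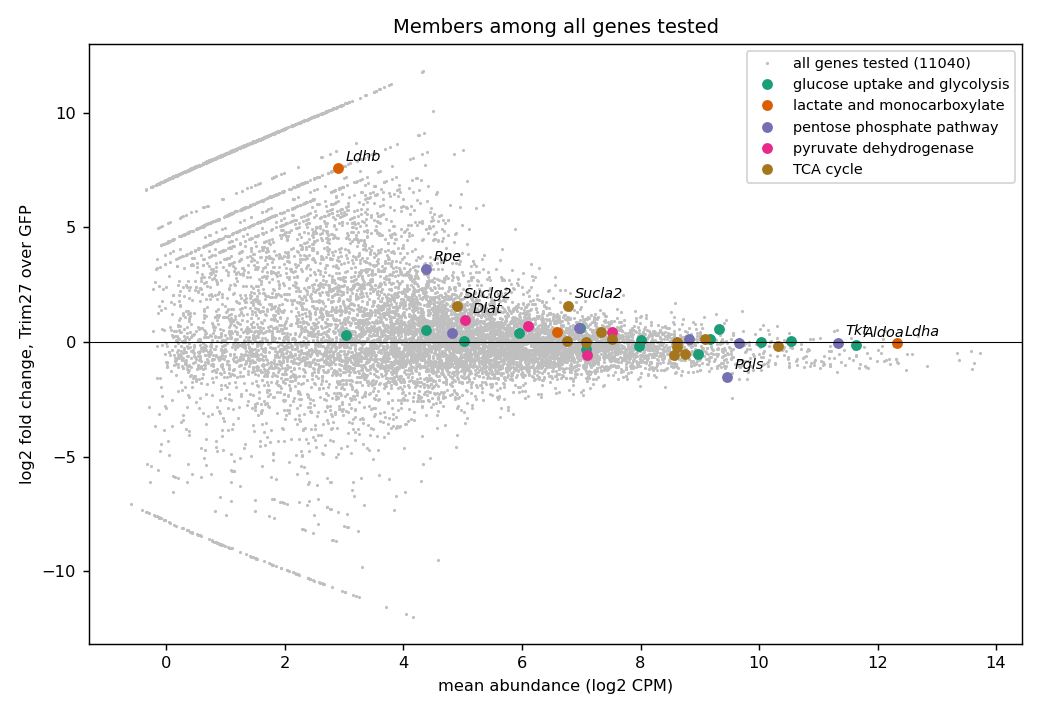
Log2 fold change of Trim27 over GFP (y axis) against mean abundance in log2 CPM (x axis) for all 11040 genes tested (grey) and the 40 members, coloured by pathway. Ldha, Aldoa and Tkt, at the right, lie near 0, while Ldhb, Rpe, Suclg2, Sucla2 and Pgls stand away from it; fold changes of genes with few counts in one group, such as Ldhb, are poorly determined.

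Single steps of glycolysis moved apart from the trunk. Pgk1 (phosphoglycerate kinase, the first step that yields ATP) was at 797, 786, 742 and 755 CPM in the Trim27 libraries, against 493, 548, 514 and 513 CPM in the GFP libraries. The lowest Trim27 library was above the highest GFP library, and the gene rose by 0.58 on the log2 scale (SE 0.05, adjusted p = 1.68e-12). Tpi1 (triose phosphate isomerase) was at 388, 434, 430.1 and 398 CPM in the Trim27 libraries, against 598, 614, 579.6 and 592 CPM in the GFP libraries. It fell in all 4 Trim27 libraries, with a log2 fold change of -0.53 (SE 0.05, adjusted p = 2.06e-11). Tpi1 shares 34 exon bases with Spsb2 on the opposite strand, and for Pgk1 the annotation holds 2 near-identical pseudogene copies with 428 counts in the Trim27 group and 152 in the GFP group. Counting by strand is not stated, so reads of such pairs cannot be told apart.

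At the entry of the pathway, the glucose carrier gene Slc2a1 and the hexokinase genes Hk1 and Hk2 were higher in the Trim27 group on the TMM scale, while other glucose-phosphorylating enzymes were lower. Of the wider list, Hk3 averaged 4.91 ± 0.644 CPM in the Trim27 group and 9.38 ± 1.63 CPM in the GFP group (SD, n = 4 each) and fell (-0.94, SE 0.18, adjusted p = 2.79e-05). Adpgk, the ADP-dependent glucokinase, averaged 44.3 ± 2.45 CPM in the Trim27 group and 59.1 ± 2.01 CPM in the GFP group and fell (-0.42, SE 0.07, adjusted p = 5.58e-06). Slc2a1, the glucose transporter GLUT1, was at 71.4, 66.3, 73.6 and 65.3 CPM in the Trim27 libraries, against 58.4, 45.9, 53.8 and 54.8 CPM in the GFP libraries. The hexokinase gene Hk1 was at 138, 162, 151 and 148 CPM in the Trim27 libraries, against 112, 94.9, 95.3 and 95.1 CPM in the GFP libraries. For both genes the groups did not overlap, and Hk1 in GFP library 1 stood above the other GFP libraries. The rises were 0.38 (SE 0.08, adjusted p = 3.41e-05) for Slc2a1 and 0.59 (SE 0.06, adjusted p = 7.5e-10) for Hk1. The second hexokinase gene, Hk2, averaged 23.8 ± 1.95 CPM in the Trim27 group and 16.6 ± 2.44 CPM in the GFP group (SD, n = 4 each) and rose by 0.52 (SE 0.12, adjusted p = 0.000184). These are genes with long transcripts, and with the length trend removed none of the rises remained, with Slc2a1 at -0.08, Hk1 at 0.02 and Hk2 at -0.23. Hk1 shares 157 exon bases with the antisense gene Hk1os, which had 198 counts in the Trim27 group and 0 in the GFP group.

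Phosphofructokinase, the committed step, is made from 3 genes. Pfkl, the liver-type subunit, was at 107, 130.3, 125 and 123 CPM in the Trim27 libraries, against 153, 149, 157 and 144 CPM in the GFP libraries. It fell in all 4 Trim27 libraries, with a log2 fold change of -0.32 (SE 0.06, adjusted p = 1.87e-05), but by library size alone the value was -0.01 (adjusted p = 0.832). Pfkp averaged 32.5 ± 1.12 CPM in the Trim27 group and 31.9 ± 1.22 CPM in the GFP group, and Pfkm 8.54 ± 1.66 CPM in the Trim27 group and 7.05 ± 1.03 CPM in the GFP group (SD, n = 4 each). Neither passed. Both were called higher by library size alone (0.33 for Pfkp and 0.59 for Pfkm), and with the length trend removed Pfkp was called lower (-0.53). Pfkp shares 748 exon bases with Pitrm1 on the opposite strand. The remaining glycolytic genes differed by little. Gpi1 (glucose phosphate isomerase) was called higher at 0.12, and Aldoa and Gapdh were called lower at -0.12 and -0.17, with adjusted p of 0.0303, 0.0182 and 0.0345 by edgeR.

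All 3 calls were lost when single libraries were left out. The call of Gpi1 was lost without any one of Trim27 libraries 2 to 4 and GFP libraries 2 to 4 (lowest value 0.04, without Trim27 library 2). That of Aldoa was lost without GFP library 1 (-0.10). That of Gapdh was lost without Trim27 library 1 or 4 (-0.14 and -0.15) or GFP library 1, 2 or 3 (-0.14, -0.17 and -0.18). Aldoa and Gapdh turned positive by library size alone (0.19 and 0.13), and Gpi1 turned negative with the length trend removed (-0.27). Gapdh, the usual reference gene, stood at 166 CPM per kb in the Trim27 group and 187 CPM per kb in the GFP group, below Pgk1 at 422 CPM per kb in the Trim27 group and 283 CPM per kb in the GFP group. It has 68 near-identical pseudogene copies in the annotation, of which 39 are in the table with 8123 counts in the Trim27 group and 4666 in the GFP group, beside 15037 counts for Gapdh itself in the Trim27 group and 9627 in the GFP group. Its level and its change are therefore uncertain.

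The largest fold difference among the 40 genes was that of a lactate dehydrogenase subunit. Ldhb, the heart-type subunit, was at 9.57, 13.5, 13.4 and 13.1 CPM in the Trim27 libraries, against 0, 0.213, 0 and 0 CPM in the GFP libraries. All 4 Trim27 libraries lay above every GFP library. There were 780 counts over the Trim27 libraries and 2 over the GFP libraries, a ratio of 224 with a 95% counting interval of 61.8 to 1852 (edgeR adjusted p = 4.04e-16). The interval covers counting error only, and without GFP library 2 no GFP count remained. Ldhb still made up little of the dehydrogenase message, since Ldha took 99.8% ± 0.0279 of the counts of both genes in the Trim27 group and 99.999% ± 0.00201 in the GFP group (SD, n = 4 each).

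Slc16a1, the lactate and pyruvate carrier MCT1, was at 117, 101, 106 and 113 CPM in the Trim27 libraries, against 79.3, 93.2, 78.4 and 75.5 CPM in the GFP libraries. The groups did not overlap, and it rose by 0.42 (SE 0.07, adjusted p = 1.76e-06), but with the length trend removed it was lower, at -0.18 (adjusted p = 0.0158). The exporter gene Slc16a3 (MCT4), of the wider list, averaged 88.1 ± 7.18 CPM in the Trim27 group and 102 ± 6.57 CPM in the GFP group.

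Within the pentose phosphate pathway the steps moved in opposite directions. Pgls, which hydrolyses the lactone made by glucose 6-phosphate dehydrogenase, was at 305, 414, 387 and 365 CPM in the Trim27 libraries, against 1106, 1010.2, 1033 and 1034 CPM in the GFP libraries. The groups lay far apart, and Trim27 library 1 was lowest. The fall was -1.51 on the log2 scale (SE 0.07, adjusted p = 1.03e-14), the only one of at least 2-fold among the 40 genes. Rpe, which interconverts ribulose and xylulose phosphates, was at 36.6, 32.9, 34.7 and 33.1 CPM in the Trim27 libraries, against 3.88, 3.62, 2.99 and 4.32 CPM in the GFP libraries. It rose by 3.20 (SE 0.13, adjusted p = 6.85e-19), a 9.21-fold difference that held in every library.

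Both genes share exon sequence with a neighbour. Rpe shares 558 exon bases with Kansl1l on the opposite strand, and Kansl1l went the other way, at 0.916 ± 0.552 CPM in the Trim27 group and 23.0 ± 1.94 CPM in the GFP group (SD, n = 4 each). Pgls shares 776 exon bases with Fam129c on the same strand, which averaged 4.94 ± 1.42 CPM in the Trim27 group and 8.42 ± 5.64 CPM in the GFP group. How reads in these stretches were assigned is not given in the sources used here, and the part of the overlap was not tested.

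The NADPH-producing steps lie on either side of Pgls. G6pdx, the entry dehydrogenase, was at 142, 161, 147 and 153 CPM in the Trim27 libraries, against 97.7, 95.7, 95.1 and 102 CPM in the GFP libraries. It rose in all 4 Trim27 libraries, by 0.63 (SE 0.06, adjusted p = 2.58e-11), and shares 418 exon bases with Ikbkg on the opposite strand. Pgd, the second dehydrogenase, averaged 471 ± 14.0 CPM in the Trim27 group and 429 ± 17.3 CPM in the GFP group and was called higher at 0.13 (SE 0.05, adjusted p = 0.00899). The call of Pgd was lost without Trim27 library 2, 3 or 4 (0.10, 0.10 and 0.09), and its sign turned with the length trend removed (-0.14). Rpia, which makes ribose phosphate, averaged 31.5 ± 1.5 CPM in the Trim27 group and 23.8 ± 0.815 CPM in the GFP group and rose by 0.40 (SE 0.09, adjusted p = 0.000228).

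The carbon-shuffling enzymes that lead back to glycolysis did not pass. Tkt (transketolase) was at 2299, 2654, 2636 and 2639 CPM in the Trim27 libraries, against 2717, 2579, 2619 and 2529.7 CPM in the GFP libraries. The groups overlapped, with Trim27 library 1 below all others (log2 fold change -0.03, SE 0.05, adjusted p = 0.546). Taldo1 (transaldolase) averaged 798 ± 17.0 CPM in the Trim27 group and 814 ± 21.1 CPM in the GFP group (-0.03, SE 0.04, adjusted p = 0.543). Removing the length trend put Tkt at -0.48 (adjusted p = 6.19e-11), and library size alone put both genes at 0.27 and 0.28.

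The subunits of pyruvate dehydrogenase, which must assemble into one complex, did not move together. Pdha1, the catalytic alpha subunit of E1, was at 211, 209, 207 and 212 CPM in the Trim27 libraries, against 149, 167, 149.7 and 157 CPM in the GFP libraries. Pdhb, its beta partner, was at 123, 103, 106 and 112 CPM in the Trim27 libraries, against 158, 165, 162 and 175 CPM in the GFP libraries. The groups did not overlap for either gene, with Pdha1 higher and Pdhb lower in the Trim27 group. The log2 fold changes were 0.43 (SE 0.05, adjusted p = 7.15e-09) and -0.57 (SE 0.06, adjusted p = 4.41e-10). With the length trend removed Pdha1 no longer passed (0.05), while Pdhb kept its fall (-0.58). Pdha1 shares 603 exon bases with Map3k15 on the opposite strand, which was lower in the Trim27 group, at 0.611 ± 0.12 CPM against 8.48 ± 1.93 CPM in the GFP group.

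The other 2 catalytic components rose. Dlat, the E2 acetyltransferase, was at 51.5, 37.6, 39.0 and 39.0 CPM in the Trim27 libraries, against 20.7, 23.5, 19.0 and 24.0 CPM in the GFP libraries. Dld, the E3 dehydrogenase that is shared with the 2-oxoglutarate complex, was at 102, 78.1, 76.6 and 80.1 CPM in the Trim27 libraries, against 47.0, 58.5, 52.5 and 50.4 CPM in the GFP libraries. For both genes all Trim27 libraries lay above all GFP libraries, and Trim27 library 1 stood above the other 3. The rises were 0.94 (SE 0.11, adjusted p = 3.19e-09) for Dlat and 0.69 (SE 0.09, adjusted p = 3.44e-08) for Dld. Without Trim27 library 1 they were 0.79 and 0.55. With the length trend removed both still passed but were smaller, at 0.38 for Dlat and 0.35 for Dld.

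**Figure D3:**
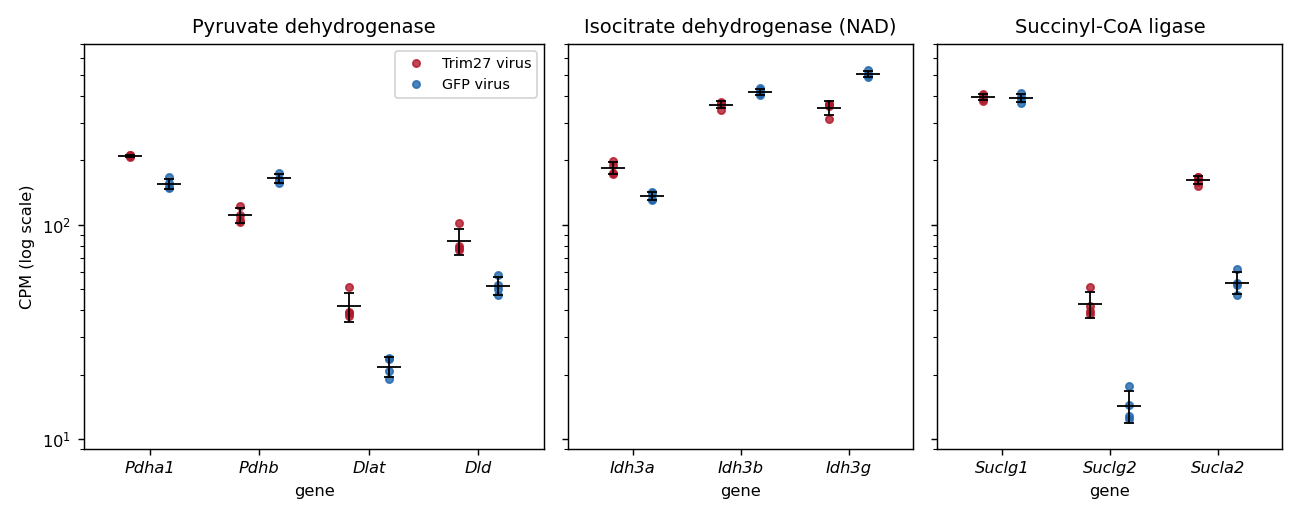
CPM on a log axis (y) for the members (x) that encode subunits of pyruvate dehydrogenase, the NAD-dependent isocitrate dehydrogenase and succinyl-CoA ligase. Red points are the 4 Trim27 libraries, blue points the 4 GFP libraries, and black bars mean and SD. Pdhx, a pyruvate dehydrogenase gene of the wider list, is not drawn. In each complex at least 1 subunit was higher in the Trim27 libraries while another was lower (Pdhb, Idh3b, Idh3g) or level (Suclg1); by library size alone Idh3b was higher, and with the length trend removed Pdha1 and Idh3a did not pass.

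In the TCA cycle the clearest rises were in the beta subunits of succinyl-CoA ligase. Sucla2, which makes the ATP-forming enzyme, was at 167, 153, 159 and 167 CPM in the Trim27 libraries, against 47.0, 62.5, 53.4 and 52.3 CPM in the GFP libraries. Suclg2, which makes the GTP-forming enzyme, was at 51.4, 39.5, 38.4 and 41.8 CPM in the Trim27 libraries, against 12.8, 14.5, 17.7 and 12.3 CPM in the GFP libraries. Both rose in every Trim27 library, by 1.59 (SE 0.07, adjusted p = 1.58e-18) and 1.58 (SE 0.12, adjusted p = 2.7e-13). The common alpha subunit Suclg1 was at 408, 401, 379.7 and 388 CPM in the Trim27 libraries, against 369, 415, 395 and 389 CPM in the GFP libraries. Here the groups overlapped (log2 fold change 0.0082, SE 0.05, adjusted p = 0.876), and leaving out single libraries moved the value between -0.04 and 0.03. By library size alone, which raised the median of all genes by 0.30, Suclg1 was at 0.31. The share of Sucla2 among the counts of both beta subunits was 79.1% ± 1.8 in the Trim27 group and 79.0% ± 2.81 in the GFP group (SD, n = 4 each).

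The NAD-dependent isocitrate dehydrogenase was split as well. Its catalytic subunit gene Idh3a was at 198, 175, 173 and 191 CPM in the Trim27 libraries, against 132, 143, 140.3 and 131 CPM in the GFP libraries. Idh3g, a regulatory subunit gene, was at 312, 369, 367 and 357 CPM in the Trim27 libraries, against 530.2, 489.7, 505 and 499.7 CPM in the GFP libraries. The groups did not overlap, with Idh3a higher and Idh3g lower in the Trim27 group. Idh3a rose by 0.43 (SE 0.06, adjusted p = 3.65e-08), though at 0.09 it did not pass with the length trend removed, and Idh3g fell with a log2 fold change of -0.53 (SE 0.05, adjusted p = 1.62e-10). Idh3b averaged 364 ± 13.8 CPM in the Trim27 group and 419.7 ± 13.8 CPM in the GFP group (-0.21, SE 0.05, adjusted p = 0.000198), and by library size alone its value was 0.10 (adjusted p = 0.0407).

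Fh1 (fumarase) was at 305, 313, 304 and 314 CPM in the Trim27 libraries, against 455, 456, 439 and 462 CPM in the GFP libraries. It fell in all 4 Trim27 libraries, with a log2 fold change of -0.55 (SE 0.05, adjusted p = 2.71e-12). Mdh2, the mitochondrial malate dehydrogenase, averaged 1196 ± 62.8 CPM in the Trim27 group and 1347 ± 29.2 CPM in the GFP group (SD, n = 4 each). It fell (-0.17, SE 0.04, adjusted p = 0.000809), but by library size alone it was higher, at 0.13 (adjusted p = 0.00324). Its cytosolic counterpart Mdh1 averaged 135 ± 1.11 CPM in the Trim27 group and 134 ± 4.0 CPM in the GFP group (0.01, SE 0.05, adjusted p = 0.816).

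The entry enzyme and the 2-oxoglutarate complex differed by little. Cs (citrate synthase) averaged 566 ± 26.9 CPM in the Trim27 group and 521 ± 19.2 CPM in the GFP group and was called higher at 0.12 (adjusted p = 0.0216). Dlst, the E2 of the 2-oxoglutarate complex, averaged 191 ± 9.05 CPM in the Trim27 group and 176 ± 8.6 CPM in the GFP group and was called higher at 0.12 (adjusted p = 0.0446). The call of Cs was lost without Trim27 library 2, 3 or 4 (0.06, 0.09 and 0.09) or GFP library 2 or 4 (0.10 each). That of Dlst was lost without Trim27 library 2, 3 or 4 (0.05, 0.07 and 0.10) or GFP library 1, 3 or 4 (0.10, 0.12 and 0.09). With the length trend removed both were lower, at -0.28 and -0.26. Ogdh, the E1 of that complex, averaged 109.8 ± 2.73 CPM in the Trim27 group and 105 ± 3.53 CPM in the GFP group and did not pass (0.06, SE 0.06, adjusted p = 0.327).

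Shares of counts among isozymes do not depend on a factor that scales all genes of a library alike. Removing a length trend scales genes unequally, and shares were not computed with it removed. In all, 7 shares were compared by exact 2-sided permutation tests over libraries. The smallest p that 4 against 4 allows is 0.0286, which is 0.04 after adjustment over the 7. Pfkl took 74.6% ± 1.54 of the phosphofructokinase counts in the Trim27 group and 79.5% ± 0.576 in the GFP group (SD, n = 4 each; exact permutation adjusted p = 0.04). Pfkp took 20.1% ± 1.72 in the Trim27 group and 16.8% ± 0.677 in the GFP group, and Pfkm 5.25% ± 0.892 in the Trim27 group and 3.71% ± 0.535 in the GFP group (exact permutation adjusted p = 0.04 for each). The 3 shares add up to the whole and are not separate findings. Mdh1 took 10.2% ± 0.472 of the malate dehydrogenase counts in the Trim27 group and 9.05% ± 0.0808 in the GFP group, and the share of Ldha differed as given above (exact permutation adjusted p = 0.04 for each).

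The share of Hk2 among the counts of Hk1 and Hk2, with Hk3 not included, was 13.7% ± 1.38 in the Trim27 group and 14.3% ± 1.13 in the GFP group (exact permutation adjusted p = 0.567), and that of Sucla2 did not differ beyond its spread (exact permutation adjusted p = 0.943). Without any one GFP library the exact permutation adjusted p of the 5 was 0.08, and without Trim27 library 3 that of Pfkm was 0.08. With 3 libraries against 4, groups that did not overlap gave an exact permutation p of 0.0286 or 0.0571, so these adjusted values say nothing about stability. Without any one GFP library the differences were -5.07 to -4.65 percentage points for Pfkl and 1.11 to 1.17 for Mdh1. Shares computed per transcript length differed by -4.98 for Pfkl, 2.98 for Pfkp, 1.998 for Pfkm, -0.336 for Ldha and 0.825 for Mdh1 (exact permutation adjusted p = 0.04 for each). Each gene was divided by the same length in every library. For Ldha and Mdh1, each with a single partner gene, this keeps the order of the libraries, so groups that did not overlap stay apart. Such division cannot remove a length trend that differs between libraries.

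**Figure D4:**
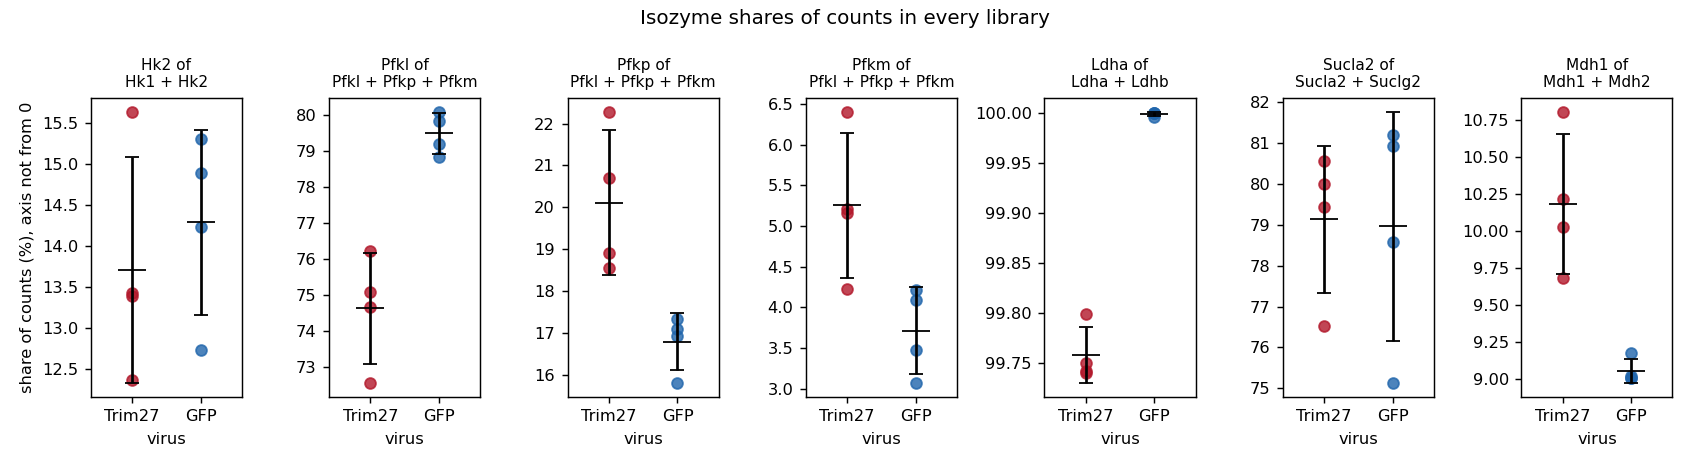
Share of counts in percent (y axis, not starting at 0) of 1 isozyme among its family, for the 4 Trim27 libraries (red) and the 4 GFP libraries (blue), with mean and SD in black. The groups do not overlap for Pfkl, Pfkp, Pfkm, Ldha and Mdh1, and they overlap for Hk2 and Sucla2.

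The wider pathway was read from a list of 70 other genes, of which 55 were tested. Of these, 27 rose, 24 fell and 4 did not pass, and 16 rises and 8 falls were of at least 2-fold (median log2 fold change 0.18). Of the 55, 92.7% passed, against 85.5% of all genes, and rises and falls of at least 2-fold made up 31.3% and 16.0% of all genes, close to their shares here. By library size alone 33 of them rose and 14 fell, beside 6277 and 3106 of all 11040 genes. Slc2a3 and Prps2 were among the 3 largest rises of genes of at least 3 log2 CPM. Slc2a3, the glucose transporter GLUT3, was at 82.1, 82.6, 85.2 and 86.1 CPM in the Trim27 libraries, against 13.02, 14.8, 9.69 and 13.7 CPM in the GFP libraries. It was higher in every Trim27 library, by 2.71 on the log2 scale (SE 0.09, adjusted p = 1.04e-20). On the scale of CPM per kb Slc2a3 was at 21.2 in the Trim27 group, as was Slc2a1, against 3.23 for Slc2a3 and 16.3 for Slc2a1 in the GFP group. Prps2, which makes the ribose donor of nucleotides, rose by 2.61 (SE 0.12, adjusted p = 6.13e-18).

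The 3 largest falls were Aldoc, Pdp2 and Pklr. Aldoc, an aldolase isozyme, averaged 2.83 ± 0.371 CPM in the Trim27 group and 33.8 ± 4.02 CPM in the GFP group (-3.57, SE 0.15, adjusted p = 3.29e-19). Pklr, the pyruvate kinase of liver and red cells, averaged 8.25 ± 1.01 CPM in the Trim27 group and 23.3 ± 2.06 CPM in the GFP group (-1.49, SE 0.13, adjusted p = 1.29e-11). Of the 9 erythroid markers tested, 6 fell like Pklr and 3 rose, and the part of erythroid cells in the fall of Pklr was not tested.

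Regulators of pyruvate dehydrogenase also moved. Of 7 kinase and phosphatase genes 4 were tested, of which 2 rose and 2 fell. The kinase gene Pdk1 was at 34.6, 29.6, 29.9 and 31.1 CPM in the Trim27 libraries, against 13.9, 15.7, 14.5 and 16.9 CPM in the GFP libraries, and Pdk2 averaged 4.44 ± 1.32 CPM in the Trim27 group and 1.93 ± 0.748 CPM in the GFP group. These 2 rose by 1.03 (SE 0.11, adjusted p = 3.32e-10) and 1.18 (SE 0.30, adjusted p = 0.000592). Pdk3 was the most abundant of the 3 tested kinase genes per length, with 61.8 CPM per kb in the Trim27 group and 69.2 CPM per kb in the GFP group. It averaged 131 ± 5.34 CPM in the Trim27 group and 146 ± 9.54 CPM in the GFP group. Pdk3 fell (-0.16, SE 0.06, adjusted p = 0.00983), with groups that overlapped. This fall was smaller than the 0.30 by which scaling by library size alone moved the median of all genes. The phosphatase gene Pdp2 was at 4.75, 4.70, 4.69 and 3.82 CPM in the Trim27 libraries, against 15.7, 14.6, 20.2 and 17.1 CPM in the GFP libraries, and fell (-1.90, SE 0.16, adjusted p = 4.71e-12). Pdp1 had 43 counts over the Trim27 libraries and 2 over the GFP libraries and was not tested, like Pdpr, and Pdk4 had none. Of 4 Pfkfb genes, which set the level of fructose 2,6-bisphosphate, 3 were tested and 2 rose. Pfkfb4 had no count in the GFP libraries and was at least 88.4-fold higher, against a floor of 3 counts over the group, and Pfkfb2 averaged 3.07 ± 0.64 CPM in the Trim27 group and 0.163 ± 0.20 CPM in the GFP group. These regulators beyond Pdp2 were picked by family and not by size.

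Fold changes were also set against transcript length. Over the 40 genes Spearman's rho between the length of the longest coding transcript and the log2 fold change was 0.455, and over 10992 genes with a length rho was 0.252. Pearson's r over the 40 genes, taken on log2 length, was 0.02, with Ldhb included at its log2 fold change of 7.57. Genes are not independent, and the points share the same 8 libraries. Of the 15 members between 1000 and 2000 bases 3 rose and 8 fell, beside 918 rises and 1022 falls among 2294 genes of that length. Of the 19 members between 2000 and 4000 bases 12 rose and 2 fell, beside 2224 rises and 1361 falls among 4140 genes. Of the 6 members over 4000 bases 4 rose and 0 fell, beside 1918 rises and 925 falls among 3249 genes. Some members departed from this order. The rises of Pgk1 (1825 bases), Ldhb (1304 bases) and Rpia (1829 bases) were in short transcripts, and the falls of Fh1 (2636 bases) and Pfkl (3730 bases) in longer ones. The part of transcript length in the other members was not tested beyond the fits with the length trend removed.

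**Figure D5:**
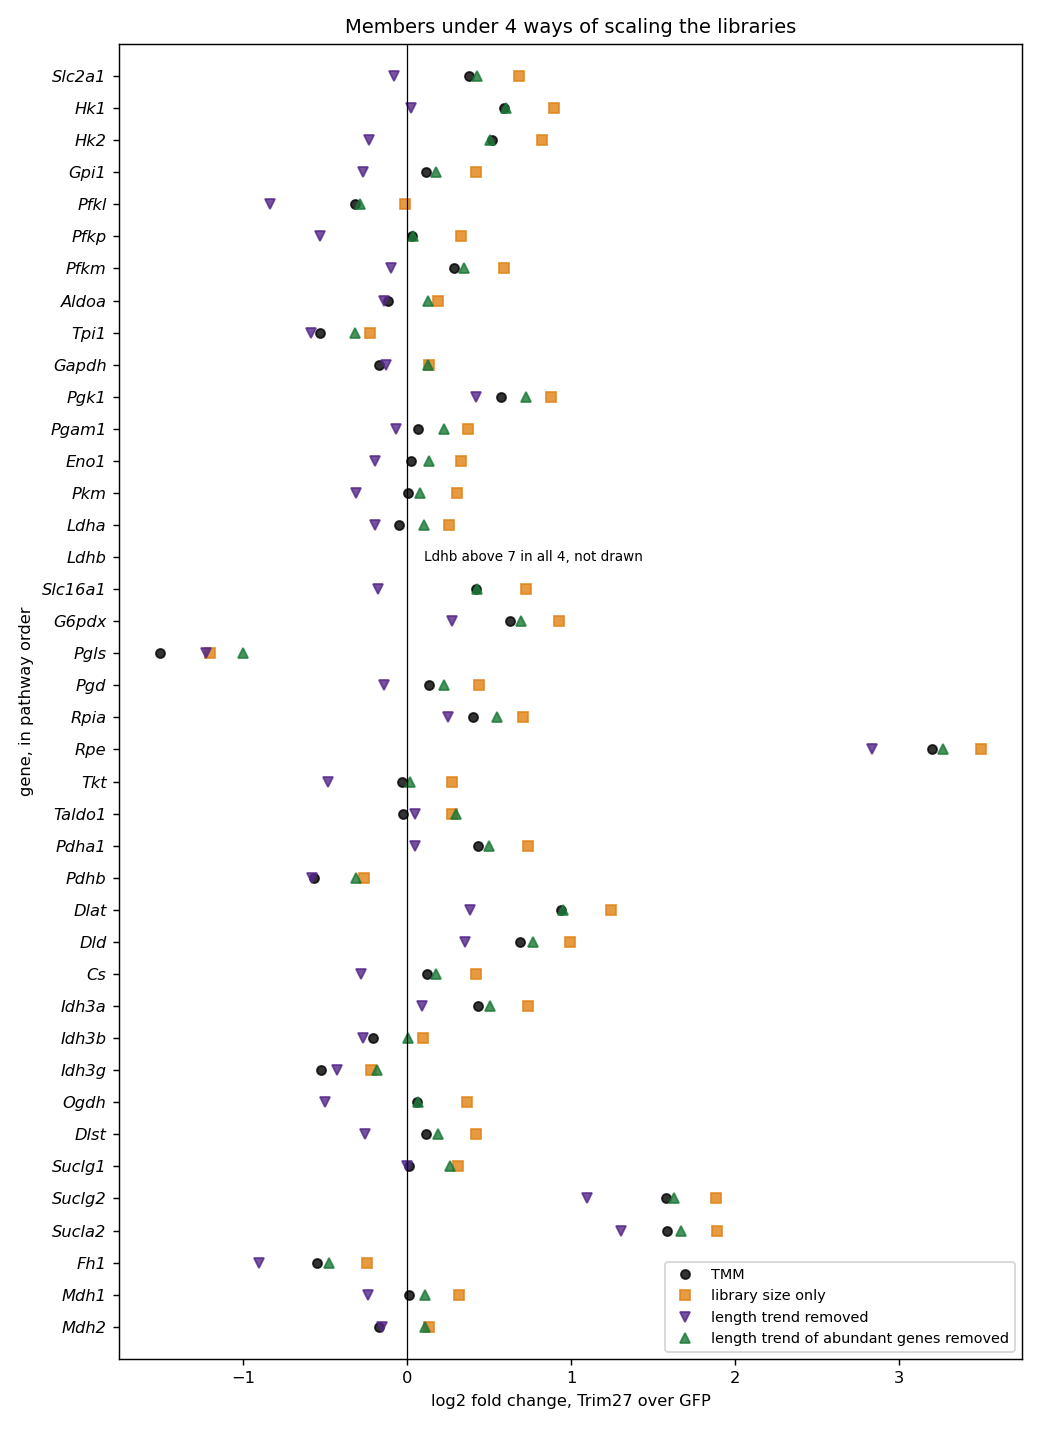
Log2 fold change of Trim27 over GFP (x axis) for each member in pathway order (y axis) under 4 ways of scaling the libraries (symbols); Ldhb, above 7 in all of them, is not drawn. Rpe, Sucla2, Suclg2, G6pdx, Rpia, Dlat, Dld and Pgk1 stay right of 0 and Pgls, Tpi1, Pdhb, Idh3g and Fh1 left of 0 under all 4, while Slc2a1, Hk2, Slc16a1, Cs, Gpi1, Dlst and Pgd turn negative with the length trend removed, and Aldoa, Gapdh, Idh3b and Mdh2 turn positive by library size alone.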

How the data were processed

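The values used are raw counts of reads for each gene symbol, deposited by the authors as 1 table of 8 libraries. Per the submitters' processing notes, bcl2fastq, HISAT2 and featureCounts were used with the build NCBIM37. Versions, annotation, strandedness and multi-mapping settings were not given in the sources used here. An unnamed row with 0 counts was left out. Even numbers made up 64.7% to 67.0% of counts between 1 and 10 in Trim27 libraries and 68.4% to 72.0% in GFP libraries, so both reads of a pair may have been counted, and counting intervals may be too narrow.

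The test was edgeR's (version 4.0.16, under R 4.3.3). Low genes were removed by filterByExpr (minimum count 10, minimum total 15), libraries were scaled by TMM, and groups were compared by the quasi-likelihood test with robust estimation, no covariate, and Benjamini-Hochberg adjustment over all 11040 genes (threshold 0.05). Standard errors come from the fold change and its F statistic. In data simulated for this comparison (10803 genes), 90.8% of genes changed by 1 log2 unit and 69.4% of those changed by 0.5 were recovered, with 12 false calls. There 100 genes were changed by each amount, equally up and down, and all others were level. In the real data 85.5% of genes passed. No scaling shift or length trend between the groups was simulated, so the 12 false calls do not cover errors from scaling. Transcript lengths, exon overlaps and pseudogene copies (at least 95% identity over 50% of the copy, minimap2 2.31-r1302) came from GENCODE M21, matched by symbol. Lengths were found for 99.6% of tested genes. The members, the gene lists and the tests were chosen with earlier results of these data known. Every member was described. Of the other pathway genes, the 3 largest rises and falls past the threshold at a mean of at least 3 log2 CPM were named, with the pyruvate dehydrogenase kinases and phosphatases and the Pfkfb genes as counts. 1 of the 3 rises is not reported here. Alternatives were DESeq2 size factors, upper-quartile factors or library size alone, other filters (none, or 10 CPM in 4 libraries), DESeq2 1.42.0, limma-voom (limma 3.58.1), a replicate block, 2 transcript-length offsets (lowess span 0.3, the second fitted on genes of at least 6 log2 CPM), an adjusted p under 0.01, isozyme shares per transcript length and leaving out each library.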

Additional observations from a re-analysis of the deposited data

Results flagged for a closer look

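In 10 of 94 sets of 4 libraries examined, 1 library lay far from the other 3 by Dixon's criterion, which chance meets in about 1 of 20. Trim27 library 1 was the one in 6 of these. It was lower than the others in Ldha (4740 CPM against 5132 to 5207), Ldhb (9.57 CPM against 13.1 to 13.5), Tkt (2299 CPM against 2636 to 2654) and Ogdh (106 CPM against 111 to 112). It was higher in Dlat (51.5 CPM against 37.6 to 39.0) and Dld (102 CPM against 76.6 to 80.1). Among the GFP libraries, library 1 was apart in Hk1 (112 CPM against 94.9 to 95.3) and in the share of Mdh1 among malate dehydrogenase counts (9.17% against 9.01% to 9.02%). GFP library 2 was apart in Ldhb (0.213 CPM against 0), with a share of Ldha among lactate dehydrogenase counts of 99.996% against 100%.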

How the results depend on the processing

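The scaling of the libraries moved the results most. By library size alone 33 members rose and 5 fell (19 and 10 in the main test), and the members' median was 0.39 (0.09). Of the other pathway genes 33 rose and 14 fell (27 and 24), and of all genes 6277 rose and 3106 fell (5249 and 4193). With the length trend removed 9 members rose, 21 fell and the median was -0.15, and after removal of the trend fitted on abundant genes 27 rose, 6 fell and the median was 0.20. Upper-quartile factors gave a median of 0.14 and no filter 0.12. With the 10 CPM filter 3453 of 7678 genes rose. Leaving out single libraries gave medians of 0.031 to 0.088, with 15 to 19 members that rose and 8 to 11 that fell. Of all genes, 5100 to 5351 rose and 4118 to 4334 fell in these fits. Under DESeq2 size factors or the DESeq2 test, Aldoa and Gapdh lost their calls.

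By library size alone Pfkp, Pfkm, Pgam1, Eno1, Pkm, Ogdh, Suclg1 and Mdh1 also passed as higher. Signs turned as follows. With the length trend removed the log2 fold change was -0.082 for Slc2a1, -0.23 for Hk2, -0.27 for Gpi1, -0.53 for Pfkp, -0.10 for Pfkm, -0.068 for Pgam1, -0.20 for Eno1, -0.32 for Pkm, -0.18 for Slc16a1, -0.14 for Pgd, 0.048 for Taldo1, -0.28 for Cs, -0.50 for Ogdh, -0.26 for Dlst, -0.0044 for Suclg1 and -0.24 for Mdh1. By library size alone, and after removal of the trend fitted on abundant genes, it was 0.19 and 0.12 for Aldoa, 0.13 and 0.12 for Gapdh, 0.26 and 0.10 for Ldha, 0.27 and 0.014 for Tkt, 0.28 and 0.30 for Taldo1, 0.10 and 0.0041 for Idh3b, and 0.13 and 0.11 for Mdh2. Upper-quartile factors gave 0.00084 for Ldha, 0.018 for Tkt and 0.020 for Taldo1, and no filter 0.00087 for Taldo1. Leaving out single libraries gave -0.022 to 0.049 for Pfkp, -0.036 to 0.026 for Eno1, -0.060 to 0.014 for Pkm, -0.040 to 0.034 for Suclg1 and -0.025 to 0.029 for Mdh1. The cause was not tested beyond the construction of each alternative.

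Leaving out single libraries, differences of shares in percentage points ran from -5.39 to -4.16 for Pfkl, 2.59 to 3.83 for Pfkp, 1.16 to 1.88 for Pfkm, -0.256 to -0.236 for Ldha, 0.921 to 1.30 for Mdh1 and -1.11 to 1.04 for Sucla2. Whether replicate numbers pair the samples is not stated. The deviations of same-numbered libraries correlated at -0.0345 to 0.0207, which cannot settle it, since a shared origin may have a small effect. For a replicate block, shares were tested exactly by flipping the signs of the paired differences. The differences of Pfkl (-4.86), Pfkp (3.32), Pfkm (1.54), Ldha (-0.242) and Mdh1 (1.13) had an exact sign-flip adjusted p of 0.175. That was the smallest that 4 pairs allowed here. With the replicate block Gpi1, Aldoa, Cs and Dlst lost their calls. Depth limits Ldhb in the GFP libraries, where 2 counts set the ratio.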
